A study of Homo sapiens with 96 samples.

Results

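Adding all-trans retinoic acid (ATRA) to an inhibitor of the histone demethylase LSD1 was examined in HL60, a human acute myeloid leukaemia (AML) cell line with promyelocyte features. The members were the 4 HL60 libraries labelled Combo, with 2 at day 2 and 2 at day 4, and the 4 HL60 libraries labelled 552A at the same days. They made up 8 of the 96 RNA sequencing libraries of the series. Combo cells had 1 µM GSK2879552 together with 100 nM ATRA, and 552A cells had 1 µM GSK2879552 alone. The label 552A was taken to mean GSK2879552, since it shares that name's last digits and no other arm of the protocol was left for it. For 2 further comparisons, the 8 HL60 libraries with 100 nM ATRA (labelled ATRA) or 0.1% DMSO vehicle (labelled DMSO) were used, and so were the 40 Combo and 552A libraries of the AML lines Kasumi1, MOLM13, MV411, OCIAML3 and THP1. Each combination of line, treatment and day had 2 libraries. No label states that these came from separate cultures, so p-values speak only of how much these libraries vary, and part of that may be technical. All HL60 values come from 1 cell line.

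ATRA binds retinoic acid receptors, which pair with retinoid X receptors on DNA and exchange corepressors such as NCOR1 for coactivators when the ligand binds. In promyelocytic leukaemia cells, ATRA is known for driving maturation towards granulocytes, and HL60 is a long-used model of that step. LSD1, encoded by KDM1A, removes methyl groups from histone tails within complexes that hold RCOR1, HDAC1 and HDAC2, and is recruited in blood cells by the repressors GFI1 and GFI1B. The question of the comparison was which transcripts ATRA changes in cells whose LSD1 is already inhibited.

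The 8 libraries held 16.62 M to 32.99 M counts. The HL60 labels were set against genes that define the line. MPO had 2102 to 3267 CPM (counts-per-million of the normalised library size) in 552A libraries, and MYC, which is amplified in HL60, had 541 to 2701 CPM there. CDKN2A, known as deleted in the line, nevertheless had 2.75 to 8.02 CPM in Combo libraries and 5.07 to 7.54 CPM in 552A libraries. The neutrophil elastase gene ELANE was listed at or below 0.0364 CPM, although the line is known to express it. HLA-F, CSF2RA, DEFA1, DEFA3, CXCL1, CXCL2, HSPA1A and HSPA1B were also listed at or near 0; most of these have near-identical copies, and the treatment of reads with several matches was not given, so their values say nothing of expression. Members of multigene families described here (LILRA5, LILRB2, CEACAM1 and NCF1) carry the same uncertainty. Libraries also differed in how counts followed gene GC content, with slopes from -0.466 to 0.323 log2 units per 10 percentage points of GC among Combo libraries and from -0.381 to 0.161 among 552A libraries, with opposite signs in the 2 replicates of Combo at each day.

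ATRA on top of the inhibitor changed a large share of the expressed genes. Of 18705 genes tested, 4309 were higher and 4182 were lower in Combo than in 552A over the mean of both days, which is 45.4% of the genes tested (23.0% higher and 22.4% lower). Calls were made at an adjusted p under 0.05 in edgeR's quasi-likelihood test with Benjamini-Hochberg adjustment over all genes tested, and every adjusted p given comes from that test unless another is named. The sizes ran in both directions, with 2895 genes up and 2334 genes down by more than 1 log2 unit among those called. At more than 5 log2 units there were 204 up and 94 down. At day 2 alone 34.6% of genes were called (17.4% higher and 17.1% lower) and at day 4 alone 29.2% (14.7% higher and 14.4% lower). Of the genes called over both days, 4205 of the 4309 higher and 4035 of the 4182 lower had the same sign at day 2 and at day 4. Combo libraries lay above 552A libraries without overlap within both days for 21.5% of genes and below them for 21.4%. The first principal component of the 8 libraries held 59.7% of their variance and had all Combo libraries on one side and all 552A libraries on the other.

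The retinoic acid response list rose as a group. Of its 20 genes 12 passed the expression filter, and 9 of these rose and 1 fell, with a median log2 fold change of 2.79 against 0.06 over all genes tested. CYP26A1 (ENSG00000095596.11, GRCh38 chromosome 10, 93073475 to 93077890, plus strand), the enzyme that degrades retinoic acid, had 29.4 and 59.1 CPM at day 2 and 19.9 and 9.64 CPM at day 4 in Combo, against 0.0364 CPM in 1 library and 0 in the other 3 in 552A. All 4 Combo libraries stood clear of that single 552A count, and the ratio of CPM was 2665 with a 95% counting interval of 477.9 to 105300, which covers counting error only. DHRS3, a reductase that turns retinal back into retinol, had 9.84, 27.0, 22.7 and 15.2 CPM in Combo and at most 0.400 CPM in 552A, a log2 fold change of 7.65 ± 0.63 (SE, 4 libraries each; adjusted p = 1.2e-06). CD38, a surface ectoenzyme used as a marker of the ATRA response, had 1039 and 902 CPM at day 2 and 300 and 307 CPM at day 4 in Combo, against 56.1, 91.4, 34.3 and 35.6 CPM in 552A. Its groups did not overlap and it rose by 3.42 ± 0.19 (adjusted p = 6.6e-08), with both groups lower at day 4. NRIP1, a ligand-dependent cofactor of nuclear receptors, rose by 3.38 to 441 to 755 CPM in Combo, against 53.6 to 63.8 CPM in 552A. RDH10, which oxidises retinol on the way to retinoic acid, was the member that fell, with 4.51 to 6.42 CPM in Combo and 21.2 to 23.8 CPM in 552A (log2 fold change -2.03). RARB, a receptor gene known as a direct target in other cells, was not called. It had 2.10 to 7.92 CPM in Combo and 3.13 to 6.26 CPM in 552A, with a log2 fold change of 0.00 ± 0.39 (adjusted p = 1).

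Promoters were searched for a direct repeat that retinoic acid receptors are known to bind. The windows were RefSeq promoters on GRCh38.p14, from 250 bases before to 50 bases after each listed start of a gene, and the motif was 2 of the half-sites AGGTCA or AGTTCA or GGGTCA or GGTTCA in the same orientation with 5 bases between them, on either strand. It was present in 31 of 35116 windows (0.0883%), which belonged to 29 of 27305 genes (0.106%). Among the 10000 tested protein-coding genes with a window, 12 held it in at least 1 window (0.12%). These included 8 of 2572 called higher, 0 of 2574 called lower and 4 not called. The 8 were CYP26A1, BATF2, FCRL6, FSCN2, CFLAR, PHF8, PANK2 and ATXN1L. Of these, FCRL6 and FSCN2 stayed at or below 0.888 CPM in Combo. PHF8, PANK2 and ATXN1L rose by only 0.53, 0.52 and 0.41 log2 units. The 3 windows shown are those of 2 genes that rose and of a receptor gene that did not, and BATF2 and RARB were chosen after their values were seen. Capitals mark the half-sites, and each window is given 5′ to 3′ on the strand of its gene. CYP26A1 has its site 90 to 74 bases before the later of its 2 listed starts (chr10:93073643-93073942, plus strand), where the repeat reads on the minus strand. BATF2, which encodes a basic leucine zipper factor, has its site 29 to 13 bases before the start (chr11:64990228-64990527, minus strand), and RARB has its site 53 to 37 bases before 1 of its 4 listed starts (chr3:25428013-25428312, plus strand).
CYP26A1: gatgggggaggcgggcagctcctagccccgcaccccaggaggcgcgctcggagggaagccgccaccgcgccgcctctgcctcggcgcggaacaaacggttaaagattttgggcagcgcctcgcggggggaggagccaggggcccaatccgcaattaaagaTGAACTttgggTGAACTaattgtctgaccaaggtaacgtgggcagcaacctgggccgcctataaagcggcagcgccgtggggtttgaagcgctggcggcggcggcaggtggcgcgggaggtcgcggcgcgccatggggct
BATF2: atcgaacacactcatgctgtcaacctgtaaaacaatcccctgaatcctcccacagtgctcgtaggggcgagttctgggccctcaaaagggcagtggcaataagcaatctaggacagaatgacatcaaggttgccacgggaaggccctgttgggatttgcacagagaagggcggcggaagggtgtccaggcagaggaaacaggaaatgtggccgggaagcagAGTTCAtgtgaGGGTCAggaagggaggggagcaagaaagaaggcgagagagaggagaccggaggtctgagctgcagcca
RARB: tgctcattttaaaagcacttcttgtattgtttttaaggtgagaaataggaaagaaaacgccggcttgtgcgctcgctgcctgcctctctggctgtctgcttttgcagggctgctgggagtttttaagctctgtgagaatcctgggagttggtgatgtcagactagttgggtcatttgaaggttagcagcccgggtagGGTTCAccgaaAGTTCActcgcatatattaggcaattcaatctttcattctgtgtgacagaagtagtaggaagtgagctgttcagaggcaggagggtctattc
BATF2 had 6.03, 13.95, 9.29 and 6.89 CPM in Combo, against 1 count in all 4 libraries in 552A, a ratio of 831 with a counting interval of 148.8 to 32860. RARB held the same kind of repeat and had overlapping groups. The window at the earlier start of CYP26A1 (chr10:93073225-93073524, plus strand) held no match to these letters. The RefSeq table had windows for 130 of the 173 genes chosen by the naming rule, and 2 of them, CYP26A1 and CFLAR, held a match. A repeat with 2 bases between the half-sites was searched for in the same way, and 5 of the 10000 tested genes held it (0.05%). They included 1 of 2572 called higher and 1 of 2574 called lower. A match describes letters in a window and not binding.

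Receptor and coregulator genes mostly rose, by less. Of 14 tested members 10 rose and 1 fell, with a median log2 fold change of 0.82. NCOA3, a coactivator of nuclear receptors, rose most among those described, with 764, 561, 307 and 347 CPM in Combo and 43.7 to 50.5 CPM in 552A (3.29 ± 0.16, adjusted p = 2.6e-08). NCOA1, NCOA2 and the corepressor NCOR1 rose by 1.36, 1.12 and 0.84. HDAC3, the deacetylase of the corepressor complex, fell by 0.56. RARA, the receptor through which ATRA acts in myeloid cells, had 27.1 and 118 CPM at day 2 and 24 and 14.5 CPM at day 4 in Combo, against 8.03, 14.1, 16.4 and 22.1 CPM in 552A. The groups overlapped at day 4, and its rise of 1.35 ± 0.43 (adjusted p = 0.021) rested on day 2: without the second Combo library of day 2 it was 0.62 with an adjusted p of 0.15. Its call was also lost, at adjusted p of 0.0727 to 0.0812, without the first 552A library of day 2, the first 552A library of day 4 or the first Combo library of day 4.

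KDM1A (ENSG00000004487.15, chromosome 1, 23019443 to 23083689, plus strand), the gene of the inhibited enzyme, fell when ATRA was added. It had 98.7, 105, 127 and 135 CPM in Combo and 229, 303, 255 and 248 CPM in 552A, a change of -1.16 ± 0.13 (adjusted p = 1.1e-05). Every Combo library lay below every 552A library. Of the 14 tested genes of the LSD1 complex list 3 rose and 3 fell, with a median of -0.19. Its called share, 42.9%, was near the 45.4% over all genes tested. HDAC1 rose by 0.82 to 397 to 487 CPM in Combo, against 226 to 281 CPM in 552A, and RCOR1 rose by 0.56, whereas HDAC2 fell by 0.46. GFI1, a repressor that carries LSD1 to its sites, had 382 and 508 CPM at day 2 and 195 and 152 CPM at day 4 in Combo, against 348, 416, 439 and 456 CPM in 552A. Its groups overlapped at day 2 and were apart at day 4, and its change of -0.57 over both days had an adjusted p of 0.0076. GFI1B stayed at or below 4.68 CPM and was not called (-0.78 ± 0.78, adjusted p = 0.44).

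Among called protein-coding genes averaging 1 or more in log2 CPM over the 8 libraries, with groups that did not overlap within either day, the 12 with the largest rises were as follows. That limit on the level leaves out CYP26A1 and BATF2, given above. LILRA5 (ENSG00000187116.13, chromosome 19, 54307070 to 54313139, minus strand), an activating immunoglobulin-like receptor of monocytes and neutrophils, had 311, 565, 515 and 312 CPM in Combo and at most 0.136 CPM in 552A (12.11 ± 0.51, adjusted p = 9.4e-09). CEACAM1, an adhesion molecule and inhibitory receptor, had 428 and 370 CPM at day 2 and 68.0 and 73.7 CPM at day 4 in Combo, against at most 0.196 CPM in 552A (11.26 ± 0.57). Neither gene overlapped between the groups, and CEACAM1 was lower at day 4 than at day 2 within Combo. LILRB2, an inhibitory receptor for HLA class I, rose by 9.90, ADGRE3, an adhesion receptor of mature myeloid cells, by 9.79, and SCN4B, a sodium channel subunit, by 9.38. CCR3, the eotaxin receptor, had 97.3, 69.0, 43.4 and 46.8 CPM in Combo, against 0.114 to 0.236 CPM in 552A (8.45). SLC2A5, the fructose transporter, had 540, 828, 166 and 123 CPM in Combo, against 0.542 to 1.42 CPM in 552A (8.44). JAML, an adhesion molecule of neutrophils and monocytes, was higher at day 4 (1579 and 1529 CPM) than at day 2 (680 and 468 CPM) in Combo, against 2.25 to 4.79 CPM in 552A, and rose by 8.01 over both days. DAPK2, a death-associated kinase, rose by 7.93, HIC1, a transcriptional repressor, by 7.87, and UPB1, an enzyme of pyrimidine breakdown, by 7.76. KIAA0513 rose by 7.89.

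**Figure D1:**
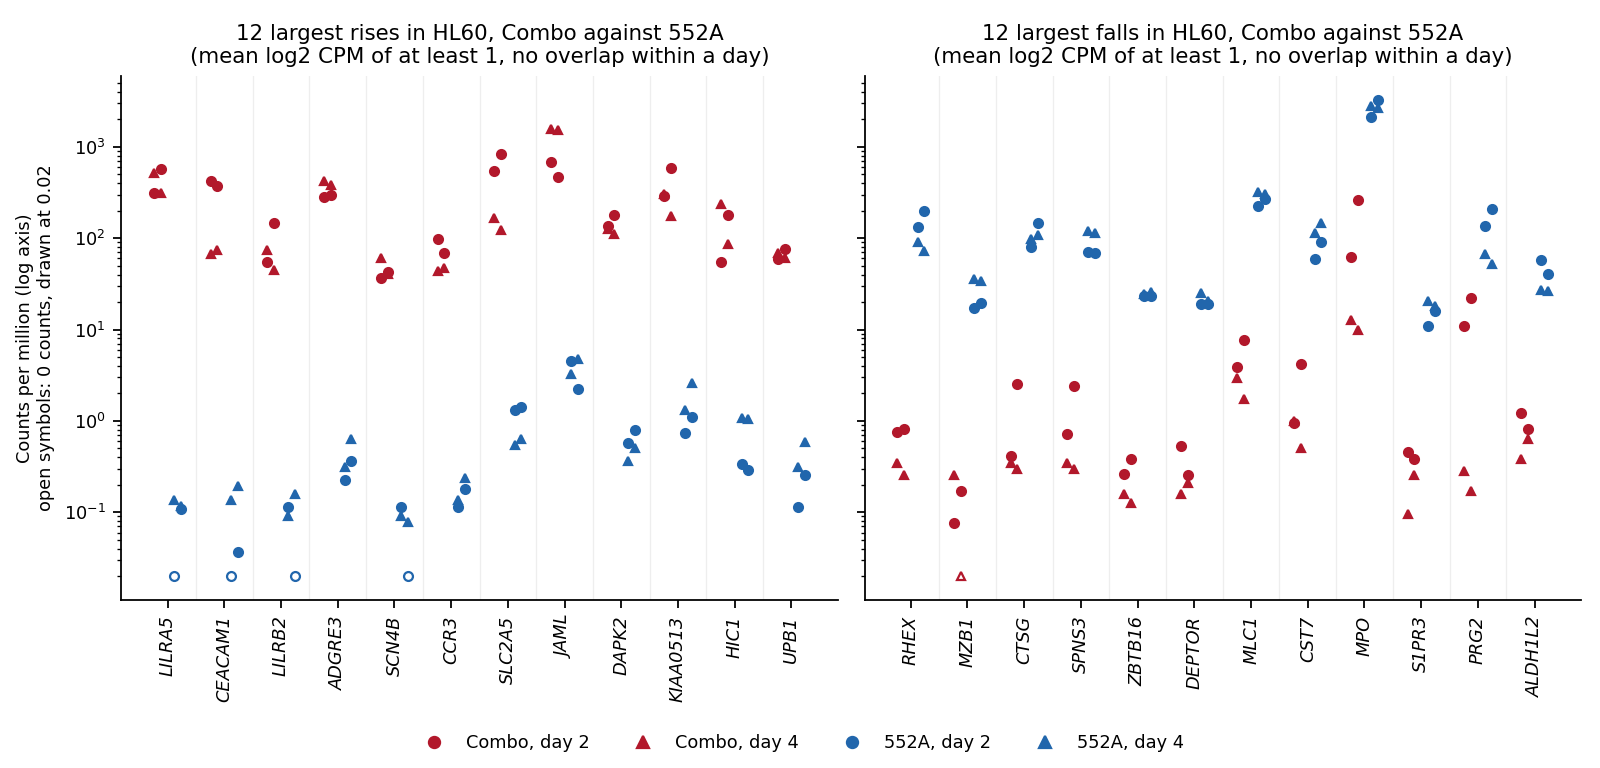
CPM (log axis) of the 12 genes with the largest rises and the 12 with the largest falls among called protein-coding genes averaging 1 or more in log2 CPM and with groups that did not overlap within either day, one point per library, with Combo to the left of 552A for each gene and open symbols at the bottom for libraries with 0 counts. LILRA5 lies at 311 to 565 CPM in Combo and at or below 0.136 CPM in 552A, and MPO at 9.93 to 262 CPM in Combo and 2102 to 3267 CPM in 552A.

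The 12 largest falls, under the same limits on level and overlap, included those of MPO and CTSG, granule proteins of the promyelocyte. RHEX, a regulator of erythroid cell expansion, had 0.754, 0.808, 0.350 and 0.254 CPM in Combo and 131, 200, 92.0 and 72.5 CPM in 552A (-7.88 ± 0.27, adjusted p = 2.5e-09). MPO (ENSG00000005381.7, chromosome 17, 58269856 to 58280935, minus strand), the myeloperoxidase of primary granules, had 62.4 and 262 CPM at day 2 and 12.8 and 9.93 CPM at day 4 in Combo, against 2102, 3267, 2790 and 2692 CPM in 552A. The groups were far apart at both days and further apart at day 4, with changes of -4.05 at day 2 and -7.91 at day 4. CTSG, the granule protease cathepsin G, fell by 7.28 to 0.296 to 2.55 CPM in Combo, against 81.0 to 145 CPM in 552A. ZBTB16, a repressor that is a fusion partner of RARA in rare leukaemias, fell by 6.77 to at most 0.383 CPM in Combo, against 23.1 to 25.7 CPM in 552A. PRG2, the major basic protein of eosinophil granules, had 11.1 and 22.1 CPM at day 2 and 0.286 and 0.169 CPM at day 4 in Combo, against 136, 210, 67.1 and 52.5 CPM in 552A (-5.68). The others were MZB1, a chaperone of antibody assembly (-7.55), SPNS3 (-6.97), DEPTOR, an inhibitor of mTOR (-6.25), MLC1 (-6.23), CST7, an inhibitor of cysteine proteases (-6.14), S1PR3, a sphingosine 1-phosphate receptor (-5.91), and ALDH1L2, a mitochondrial folate enzyme (-5.66).

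Proteins of the azurophil granule, which promyelocytes make first, fell as a group. Of 14 listed genes 10 were tested, 7 fell and 2 rose, with a median of -3.49. PRTN3, which encodes proteinase 3, fell by 4.99 and AZU1, which encodes azurocidin, by 3.75, both from low levels with at most 1.28 CPM in Combo and at most 7.93 CPM in 552A. RNASE2, a granule ribonuclease, fell by 4.72 to 7.54 and 19.6 CPM at day 2 and 0.254 and 0.423 CPM at day 4 in Combo, against 84.6, 128, 31.3 and 27.8 CPM in 552A. LYZ, lysozyme, fell by 1.57 to 116, 154, 28.1 and 32.0 CPM in Combo, against 231, 275, 154 and 129 CPM in 552A. The 2 members that rose, CD63 (1.35) and SRGN (1.09), encode a membrane protein and the proteoglycan core of many granule types. Proteins of the later specific and gelatinase granules were tested for 13 of 18 listed genes, of which 6 rose and 2 fell (median 1.63). CAMP, the cathelicidin precursor, rose by 1.54 to 1.61 to 8.80 CPM in Combo, against 0.903 to 1.48 CPM in 552A, and MMP25 rose by 2.07. CEACAM8, a granulocyte marker, had 44 counts in Combo and 0 in 552A, at least 12.9-fold higher when the 552A group is set at 3 counts in all. The defining members LTF and LCN2 were at 0 in all 8 libraries and MMP9 reached 6.14 CPM.

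Surface receptors and the oxidative burst machinery of phagocytes rose. Among myeloid surface receptors 15 of 22 tested genes rose and 4 fell, with a median of 2.04. ITGAM, the CD11b integrin chain used as the standard marker of HL60 maturation, had 536, 984, 718 and 549 CPM in Combo and 53.4, 95.1, 49.0 and 68.8 CPM in 552A (3.39 ± 0.25, adjusted p = 5.4e-07). CD86, a costimulatory ligand, had 355, 288, 256 and 294 CPM in Combo and 40.9 to 62.1 CPM in 552A (2.49 ± 0.27). Both stood apart in every library at both days. ITGAX rose by 3.72, CLEC7A, the beta-glucan receptor, by 3.82, and the chemotactic receptors FPR1 and FPR2 by 2.89 and 1.54. CSF3R, the receptor for G-CSF, had 202 and 388 CPM at day 2 but 36.9 and 28.1 CPM at day 4 in Combo, against 13.1, 23.1, 16.9 and 18 CPM in 552A (2.46 over both days). ANPEP, the CD13 aminopeptidase, fell by 2.59, and CD14 and CD177 were at or near 0 throughout. All 6 NADPH oxidase genes rose, also by DESeq2 (median 2.83). CYBB, the catalytic subunit, had 442, 481, 326 and 415 CPM in Combo and 31.5, 39.2, 16.4 and 22.1 CPM in 552A (3.98 ± 0.20, adjusted p = 2.6e-08). NCF4 rose by 1.26 and RAC2 by 0.91, and CYBA and NCF1 rose by 2.17 and 4.35 with a wide spread between replicates (53.2 against 239 CPM for CYBA at day 2 in Combo).

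**Figure D2:**
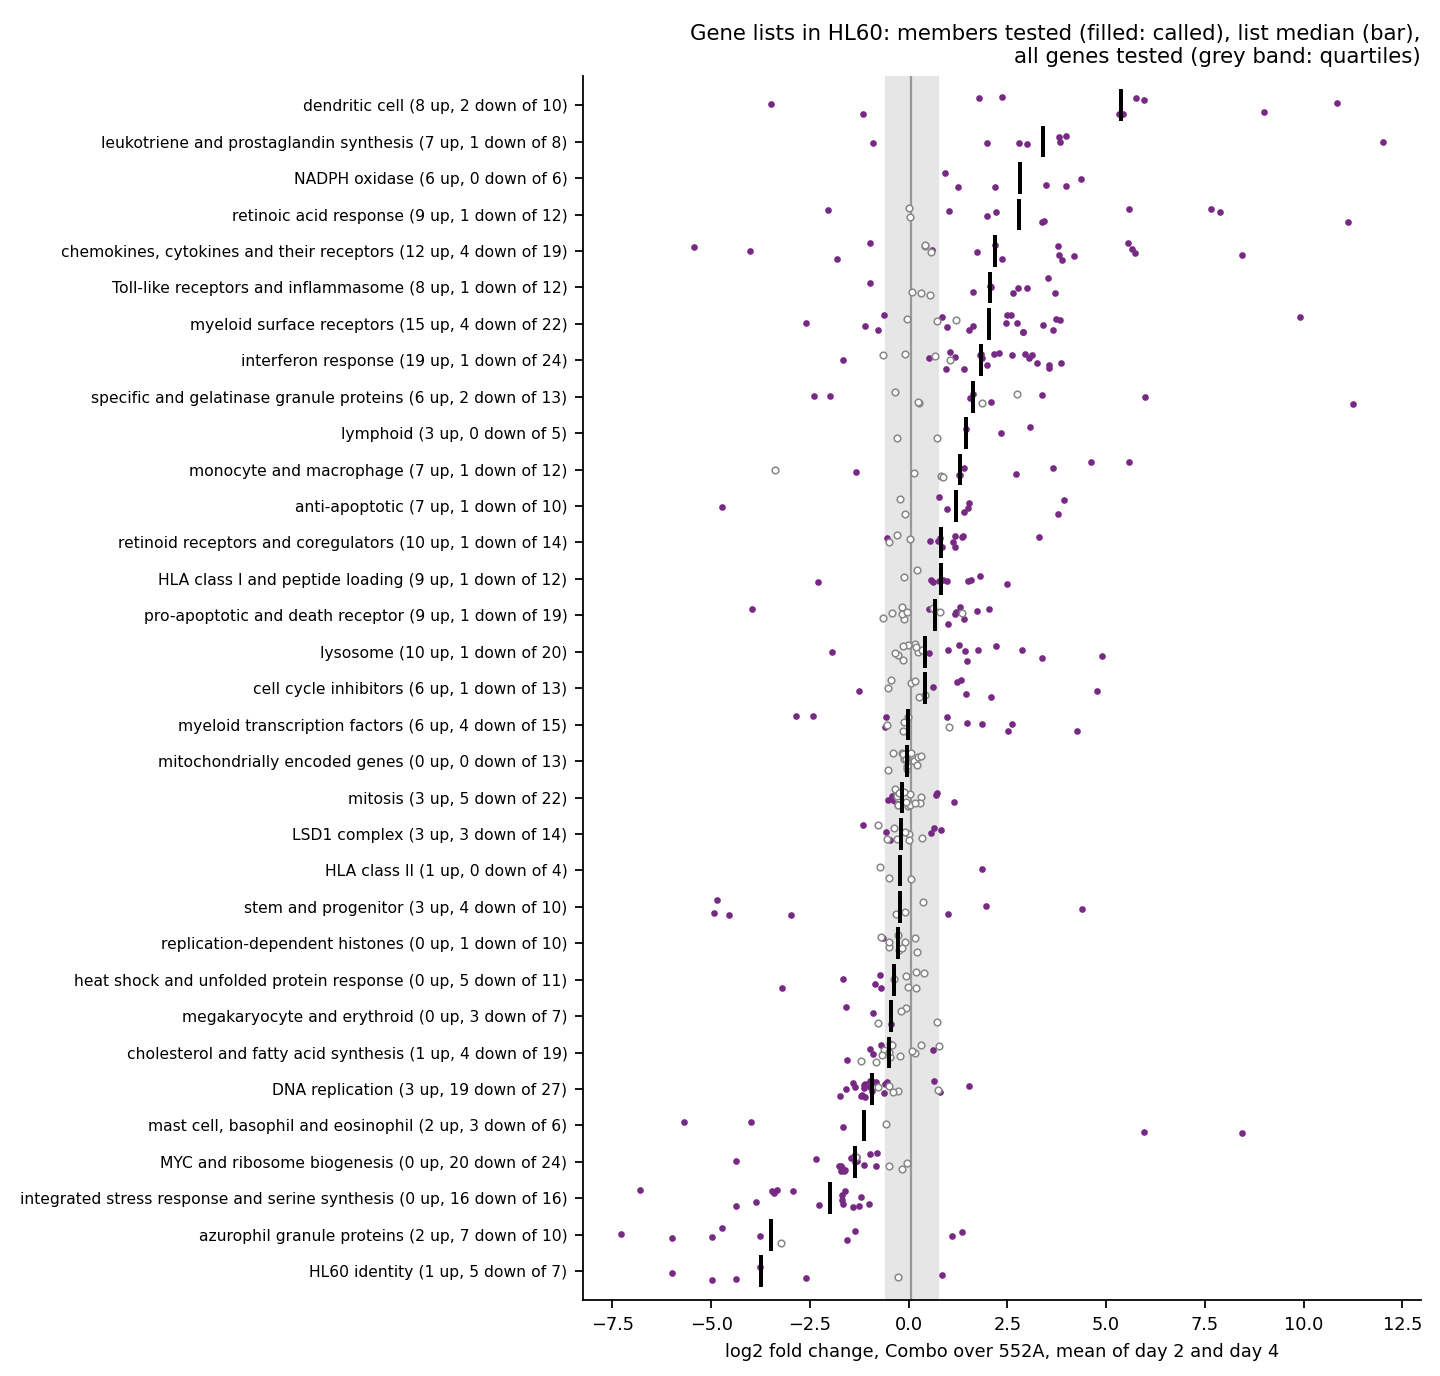
Log2 fold changes of Combo over 552A for the tested members of each gene list, one point per gene, filled where called, with the list median as a bar and the quartiles of all genes tested as a grey band. The NADPH oxidase median is 2.83 and that of the integrated stress response list is -1.99, against 0.06 over all genes.

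Transcription factors of myeloid and progenitor cells moved in both directions. Of 15 tested myeloid factors 6 rose and 4 fell, with a median of -0.02. CEBPB, a factor of maturing myeloid cells, rose by 1.86 to 49.8 to 132 CPM in Combo, against 12.1 to 39.5 CPM in 552A, while CEBPA, a factor of the granulocytic progenitor, fell by 2.43 to 12.5 to 28.0 CPM in Combo, against 89.1 to 123 CPM in 552A. PRDM1 rose by 4.26, EGR2 by 2.62 and ID2 by 2.51. CEBPE, a factor of late granulocyte maturation, had 72.9 and 409 CPM at day 2 and 41.3 and 14.5 CPM at day 4 in Combo, against 67.0, 78.5, 110 and 110 CPM in 552A, and was not called (-0.13 ± 0.53, adjusted p = 0.87). The 10 tested stem and progenitor genes also split, with 3 up, 4 down and a median of -0.22. MYB, a driver of progenitor growth, had 35.8, 26.8, 15.4 and 20.4 CPM in Combo and 590, 624, 732 and 794 CPM in 552A (-4.84 ± 0.22, adjusted p = 1.6e-08), and GATA2 fell by 4.94. KIT, the stem cell factor receptor, rose by 4.38 to 6.17 to 15.7 CPM in Combo, against 0.226 to 0.909 CPM in 552A. CD34, HOXA9 and HOXA10 were near 0 in both groups.

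MYC and the genes of ribosome production fell. Of the 24 members tested 20 fell and 0 rose in edgeR, with 21 and 0 both at an unadjusted p under 0.05 and by DESeq2, and a median of -1.36. MYC (chromosome 8, 127735434 to 127741434, plus strand), a growth factor-responsive transcription factor, had 35.4, 42.0, 114 and 82.7 CPM in Combo and 541, 843, 2005 and 2701 CPM in 552A (-4.37 ± 0.26, adjusted p = 1.1e-07). Both groups were higher at day 4 than at day 2, and they did not overlap. ODC1, the first enzyme of polyamine synthesis, fell by 2.34, the nucleolar protein gene NPM1 by 1.72 and the nucleolin gene NCL by 1.37. DNA replication genes fell by less over the mean of both days, 19 down and 3 up of 27 tested (median -0.94). The fall of this list was at day 2, with 20 down and 0 up (median -1.47). At day 4 there were 3 down and 3 up (median -0.21). MCM6, a subunit of the replicative helicase, had 95.3, 92.4, 176 and 166 CPM in Combo and 518, 449, 340 and 264 CPM in 552A (-1.59 ± 0.12). The replication genes that rose were CCNE2 (1.53), RRM2 (0.78) and GINS3 (0.65). Mitosis genes showed no common direction, with 3 up and 5 down of 22 tested (median -0.18), and MKI67, the Ki-67 proliferation marker, was higher in Combo (773, 707, 376 and 524 CPM) than in 552A (465, 374, 177 and 150 CPM; 1.14 ± 0.18, adjusted p = 0.00021). Among 13 tested cell cycle inhibitors 6 rose and 1 fell (median 0.41). The called shares of the mitosis and cell cycle inhibitor lists were 36.4% and 53.8%, against 45.4% of all genes tested. BTG2, an antiproliferative gene, rose by 4.76 to 113, 119, 731 and 619 CPM in Combo, against 3.81, 9.75, 15.4 and 15.6 CPM in 552A, and CDKN2D rose by 2.08, whereas CDKN1A, which encodes p21, was not called.

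Genes of the integrated stress response and of serine synthesis fell without exception among those tested: 16 of 16 fell in edgeR and by DESeq2, with a median of -1.99. PSAT1, an enzyme of serine synthesis, had 22.1, 16.9, 20.4 and 20.3 CPM in Combo and 474, 476, 392 and 331 CPM in 552A (-4.38 ± 0.39, adjusted p = 2.6e-06). ASNS, asparagine synthetase, had 34.0, 22.8, 35.2 and 31.8 CPM in Combo and 411, 356, 316 and 245 CPM in 552A (-3.41 ± 0.31). Both were close to level over the 4 Combo libraries. PHGDH fell by 2.94, the stress factor gene ATF4 by 1.22, the pseudokinase gene TRIB3 by 3.86 and CHAC1, which breaks down glutathione, by 6.80. Of 11 tested heat shock and unfolded protein response genes 5 fell and 0 rose in edgeR and by DESeq2, and 6 and 1 did at an unadjusted p under 0.05 (median -0.38). The share of this list called in edgeR was 45.5%, near the 45.4% over all genes tested. XBP1, the factor of the unfolded protein response, fell by 3.22 to 19.6 to 66.5 CPM in Combo, against 292 to 378 CPM in 552A, while the chaperone HSPA5 was not called (0.18, adjusted p = 0.29). Cholesterol and fatty acid synthesis showed 1 rise and 4 falls among 19 tested genes (median -0.51), with HMGCS1 down by 1.56 and SCD by 0.98. Its called share, 26.3%, was below that over all genes tested. Lysosome genes showed 10 rises and 1 fall among 20 tested (55.0% called, median 0.42). NPC2, which exports cholesterol from lysosomes, had 245, 207, 644 and 559 CPM in Combo and 29.6, 34.5, 42.0 and 38.1 CPM in 552A (3.36 ± 0.12, adjusted p = 2.6e-09), and the proteases CTSH, CTSD and CTSS rose by 4.90, 2.20 and 1.76.

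Genes of defence and inflammation rose in most lists. Of 24 tested interferon response genes 19 rose and 1 fell (median 1.84). IRF1, an interferon-induced factor, had 185, 194, 178 and 139 CPM in Combo and 30.7, 53.3, 60.0 and 49.6 CPM in 552A (1.85 ± 0.18), and DDX60 and SAMD9L rose by 3.56 and 3.05. IFIT1 was the member that fell (-1.65), and OAS1, an antiviral enzyme, was not called (-0.09, adjusted p = 0.77). HLA class I and peptide loading genes rose for 9 of 12 tested and fell for 1 (median 0.82), with B2M, the common light chain, at 1411 to 1972 CPM in Combo and 928 to 1043 CPM in 552A (0.76). HLA class II genes were near 0, with 4 of 12 tested, 1 rise (HLA-DMB), 0 falls in edgeR, by DESeq2 or at an unadjusted p under 0.05, and a median of -0.22. With an offset for GC content and length 1 of the 4 fell. Among 19 tested chemokines, cytokines and their receptors 12 rose and 4 fell (median 2.18). CCL2, the monocyte chemoattractant, had 1465, 1613, 3225 and 2981 CPM in Combo and 147, 202, 114 and 164 CPM in 552A (3.81 ± 0.18, adjusted p = 2.3e-08). CCR1 rose by 4.18, IL10RA by 5.56, IL1B by 3.79 and TNF by 2.35, whereas the cytokine gene OSM fell by 5.43 and IL1RN, the antagonist of the interleukin 1 receptor, by 4.02. Toll-like receptor and inflammasome genes rose for 8 of 12 tested and fell for 1 (median 2.07), with TLR4 up by 2.77, NLRC4 by 3.0 and the sensor NLRP3 down by 0.97. In leukotriene and prostaglandin synthesis 7 of 8 tested genes rose and 1 fell (median 3.40). ALOX5AP, which presents substrate to 5-lipoxygenase, had 455 and 781 CPM at day 2 and 174 and 164 CPM at day 4 in Combo, against 17.4 to 31.6 CPM in 552A (3.81). PTGES, a prostaglandin E synthase, had 15.9, 51.8, 92.0 and 42.1 CPM in Combo and 1 count in 552A, a ratio of 4871 with a counting interval of 873.8 to 192400.

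Among genes of apoptosis, 7 of 10 tested anti-apoptotic and 9 of 19 tested pro-apoptotic and death receptor genes rose, and 1 of each list fell. The called share of the pro-apoptotic and death receptor list, 52.6%, was not far above the 45.4% over all genes tested. BCL2 (chromosome 18, 63123346 to 63320128, minus strand), the mitochondrial survival protein, had 14.5, 11.9, 18.5 and 23.6 CPM in Combo and 413, 354, 477 and 532 CPM in 552A, a fall of 4.72 ± 0.15 on the log2 scale (adjusted p = 1.1e-09). It was the anti-apoptotic gene that fell (list median 1.19). BCL2A1 rose by 3.77 to 338, 396, 214 and 234 CPM in Combo, against 12.3 to 26.5 CPM in 552A, and MCL1 rose by 1.49 to 514 to 620 CPM in Combo, against 173 to 220 CPM in 552A. CFLAR, an inhibitor of caspase 8, rose by 1.52. Of the pro-apoptotic and death receptor genes (median 0.66), those that rose included CASP9 (2.02), APAF1 (1.40) and PMAIP1 (1.3), and HRK, which encodes a BH3-only protein, fell by 3.96.

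Markers of other cell types gave a mixed picture. Of 12 tested monocyte and macrophage genes 7 rose and 1 fell (median 1.29), yet CD14, CD163, MSR1, MARCO and MRC1 stayed at or below 0.226 CPM. MERTK, a receptor for apoptotic cells, rose by 5.58 to 41.9, 61, 10.0 and 11.2 CPM in Combo, against 0.226 to 0.668 CPM in 552A. The dendritic cell list, with 10 of 14 tested, had 8 rises and 2 falls, a median of 5.37 (4.66 with genes at 0 in 552A set at their bound), and a summed level of 54.0 to 453.3 CPM in Combo and 26.66 to 35.07 CPM in 552A. CLEC10A, a lectin of conventional dendritic cells and macrophages, had 2.75 and 2.51 CPM at day 2 and 206 and 148 CPM at day 4 in Combo, against 1 count in 552A, a ratio of 8914 with a counting interval of 1599 to 352100. CD1E, a lipid antigen presenting protein, had 2171 counts in Combo and 0 in 552A, at least 637.7-fold higher, nearly all at day 4. CCR7, the homing receptor of mature dendritic cells, fell by 3.49, CD209 and FCER1A were near 0, and HLA class II genes, which these cells use, were near 0 as given above. In the mast cell, basophil and eosinophil list 2 of 6 tested genes rose and 3 fell (median -1.13), with CLC up by 5.96 and CPA3 and TPSB2 at 0. The megakaryocyte and erythroid list had 0 rises and 3 falls among 7 tested in edgeR, 0 and 2 by DESeq2, and 1 and 3 at an unadjusted p under 0.05 (median -0.45), and GP9, PF4 and HBB were at 0. Its called share in edgeR, 42.9%, was near the 45.4% over all genes tested. The lymphoid list had 3 rises and 0 falls among 5 tested in edgeR, by DESeq2 and at an unadjusted p under 0.05 (median 1.46). With RLE size factors, a GC and length offset or 1 library left out, its median was 0.22 to 1.47. Not all of these alternatives kept the list free of falls. Its member CD4, which monocytes also express, was at 194 to 280 CPM in Combo and 73.8 to 112 CPM in 552A, and MS4A1 and CD7 were at 0. In bulk samples a change in the number of cells of a type and a change in RNA per cell cannot be told apart, and the part of other cell types in these results was not tested. Of the 7 tested genes that define HL60, 1 rose and 5 fell (median -3.75), the falls being those of MPO, PRTN3, AZU1, ANPEP and MYC given above, and CD33 rose by 0.85. None of the 13 mitochondrially encoded genes was called in edgeR (median -0.04, and 0 also at an unadjusted p under 0.05 and by DESeq2), while mitochondrial genes held 0.515% to 3.49% of counts in Combo and 0.778% to 4.00% in 552A. With an offset for GC content and length 1 of the 13 rose (median 0.405). Of 10 tested replication-dependent histone genes 1 fell (HIST1H4C, -0.65, and not called at -0.27 with an offset for GC content) and 0 rose, with 0 rises also at an unadjusted p under 0.05 and by DESeq2 (median -0.26).

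A change between the days in the difference of Combo and 552A was called for fewer genes, and it carries the error of both days. It had an unadjusted p under 0.05 in edgeR for 3131 genes, before the calls that follow. Of 18705 genes 384 had a difference that was more positive at day 4 than at day 2 and 235 a difference that was more negative, 3.31% of genes in all (2.05% and 1.26%). The count depended on single libraries. It was 178 or 180 without either 552A library of day 2, 167 or 105 without either of day 4, 252 without the second Combo library of day 2, 182 or 157 without either of day 4, and 342 to 403 without any one DMSO library. Without the first Combo library of day 2 or any one ATRA library it was 591 to 804. With an offset for GC content and gene length the calls were 1173 more positive and 1142 more negative. Among named genes with a more positive difference, ATP1B1, a subunit of the sodium pump, had 2.15 and 1.28 CPM at day 2 and 77.1 and 81.1 CPM at day 4 in Combo, against 0.626, 1.27, 0.542 and 0.314 CPM in 552A (difference 6.72 ± 0.54, adjusted p = 0.00022). IGSF6, an immunoglobulin-like protein of monocytes and dendritic cells, had 9.50, 4.72, 86.2 and 116 CPM in Combo and 0.353 to 1.37 CPM in 552A (5.10 ± 0.78, adjusted p = 0.0058, and 0.052 without the second 552A library of day 4). Both genes were level in 552A and higher at day 4 in Combo. FCRL4, an Fc receptor-like protein of B cells, had 0.566 and 0.425 CPM at day 2 and 19.6 and 20.1 CPM at day 4 in Combo, against 3.58, 4.8, 3.34 and 2.08 CPM in 552A, so that it lay below 552A at day 2 and above it at day 4 (5.94). SDC2, a cell surface proteoglycan, had 1.09, 1.15, 41.7 and 51.4 CPM in Combo and 0.633 to 2.55 CPM in 552A (5.80, adjusted p = 0.0063, and 0.054 without the second 552A library of day 2). CD1C and CD1A, lipid antigen presenting proteins, had differences of 7.72 and 7.36, with 0.170 to 0.415 CPM at day 2 and 58.0 and 64.9 CPM at day 4 for CD1C in Combo. The calls of CD1C and CD1A were lost without the second 552A library of day 2. Of the DNA replication list 16 of 27 genes had a more positive difference and 0 a more negative one in edgeR, 17 and 0 by DESeq2, and 21 and 0 at an unadjusted p under 0.05 (median 1.3, against -0.05 over all genes). Over the alternatives run the count was 4 to 21, the lowest without the second 552A library of day 4. CDC6, which loads the replicative helicase, had 36.1 and 50.7 CPM at day 2 and 120 and 114 CPM at day 4 in Combo, against 163, 195, 106 and 92.1 CPM in 552A (2.28, adjusted p = 0.0037). It was lower in Combo at day 2 and slightly higher at day 4, and CCNE2, a cyclin of DNA synthesis entry, had a difference of 3.10.

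The named genes with a more negative difference at day 4 included PADI4, BPI, TREML2 and TGM3. PADI4, which citrullinates histones in neutrophils, had 92.5 and 352 CPM at day 2 and 2.80 and 2.41 CPM at day 4 in Combo, against 37.9, 43.2, 27.8 and 45.2 CPM in 552A (-6.26 ± 0.78, adjusted p = 0.0021). BPI, a granule protein that kills bacteria, had 248 and 727 CPM at day 2 and 15 and 15.1 CPM at day 4 in Combo, against 127, 253, 223 and 286 CPM in 552A (-5.43 ± 0.69). At day 2 PADI4 lay above 552A and BPI overlapped it, and at day 4 both lay below every 552A library. TREML2, a receptor of the TREM family, had 17.9, 63.4, 0.890 and 0.507 CPM in Combo and 8.50 to 26.3 CPM in 552A (-5.08, adjusted p = 0.0081, and 0.052 and 0.055 without the second 552A or the second Combo library of day 4). TGM3, a transglutaminase, had 2.68, 18.2, 0.127 and 0.254 CPM in Combo and 7.17, 14.4, 6.73 and 15.6 CPM in 552A (-5.83, adjusted p = 0.025). Its groups overlapped at day 2, and its call was lost at adjusted p of 0.063 to 0.124 without any one of the 552A libraries of day 2, the second 552A library of day 4, the second Combo library of day 2 or either Combo library of day 4. The calprotectin genes S100A8 and S100A9 had differences of -3.75 and -3.98, with 116 and 218 CPM at day 2 and 5.18 and 7.99 CPM at day 4 for S100A8 in Combo. CXCR4 (-3.85), CSF3R (-3.13) and MPO (-3.87) were in the same direction. Of all genes tested 1.26% had a more negative difference and 2.05% a more positive one. Among myeloid surface receptors 5 of 22 tested genes had a more negative difference and 0 a more positive one in edgeR and by DESeq2, and 6 and 0 did at an unadjusted p under 0.05. Over the alternatives run 2 to 7 had a more negative one, the fewest from the 8 Combo and 552A libraries alone. Among azurophil granule proteins 3 of 10 had a more negative difference (1 to 6 over the alternatives) and among specific and gelatinase granule proteins 1 of 13 (0 to 4). Of the 6 NADPH oxidase genes 0 had one in edgeR and by DESeq2 and 1 at an unadjusted p under 0.05.

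**Figure D3:**
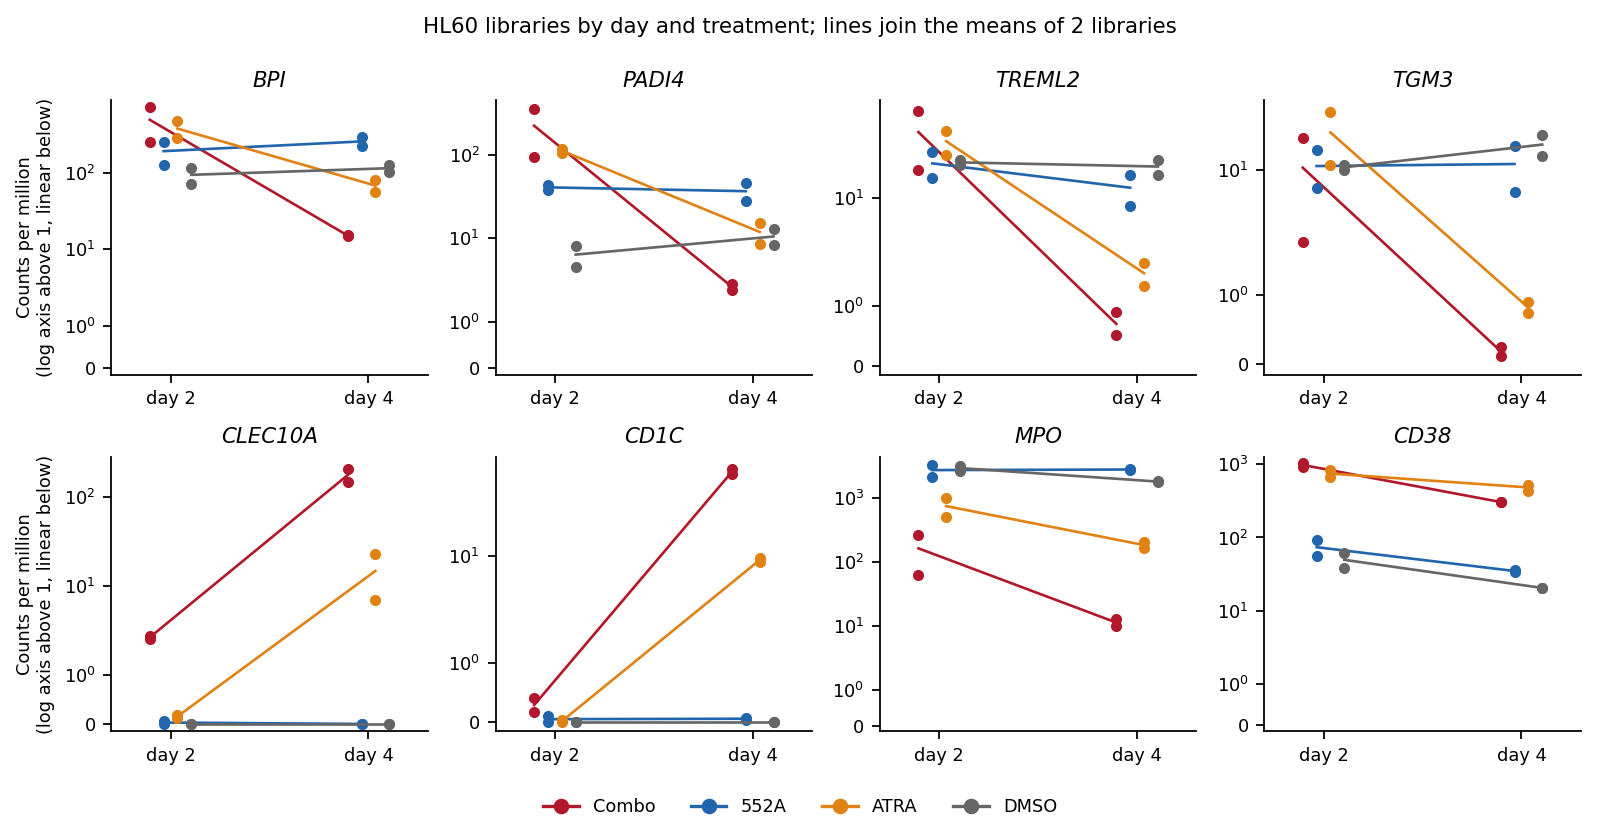
CPM (axis linear up to 1 CPM and logarithmic above) at day 2 and day 4 of 8 genes in the 4 HL60 arms, one point per library, with lines through the means of 2 libraries. In Combo, BPI and PADI4 are lower at day 4 than at day 2 (BPI at 15 and 15.1 CPM against 248 and 727 CPM) and CLEC10A and CD1C are higher at day 4.

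The effect of ATRA was then compared with and without the inhibitor, that is, Combo against 552A minus ATRA against DMSO. ATRA alone called 47.0% of the 18705 genes (24.8%, or 4641, higher and 22.2%, or 4144, lower than in DMSO), close to the share with the inhibitor. The difference between the effects carries the error of both, so fewer calls of it do not measure how alike they were. It had an unadjusted p under 0.05 in edgeR for 2368 genes. After adjustment it was called for 215 genes (1.15%), 51 more positive with the inhibitor (0.273%) and 164 more negative (0.877%). This count too depended on single libraries: it was 1422 (944 more positive and 478 more negative) without the first ATRA library of day 4, 142 without the first 552A library of day 2, 122 or 120 without either 552A library of day 4, 138 without the second ATRA library of day 2, 111 or 140 without either Combo library of day 4, and 104, 114 or 118 without 3 of the DMSO libraries in turn. Leaving out any other HL60 library gave 148 to 249. With an offset for GC content and gene length the calls were 196 more positive and 324 more negative. The GC slopes of the ATRA libraries of day 4 were 0.374 and -0.518. A gene with 0 counts in both libraries of a group cannot be called in 1 direction of such a difference, and 523 of the 18705 genes (2.80%) had such a group. CYP26A1 was the retinoic acid response gene called here: it had 9.64 to 59.1 CPM in Combo, 1 count in 552A, 1.64 to 3.41 CPM in ATRA and 0.0709 to 0.113 CPM in DMSO (difference 6.22 ± 1.12, adjusted p = 0.020). Its call was lost without the second 552A library of day 4, and both 552A libraries of day 4 had 0 counts. SPINT2, an inhibitor of serine proteases, had 11.1, 9.61, 17.2 and 13.0 CPM in Combo, 0.364 to 2.16 CPM in 552A, 0, 0, 1.39 and 1.11 CPM in ATRA and 0.0897 to 0.917 CPM in DMSO (5.70). It was thus higher in all Combo libraries than in any other HL60 library. MYCL, a MYC family factor, had 33.0 to 80.7 CPM in Combo, 1.65 to 2.98 CPM in 552A, 0.120 and 0.184 CPM at day 2 and 13.0 and 12.4 CPM at day 4 in ATRA, and 0.528 to 1.74 CPM in DMSO (3.90 ± 0.34, adjusted p = 0.00019). CTSH, a lysosomal protease, had 11.3 to 42.2 CPM in Combo, against 1.25 to 6.45 CPM in ATRA (3.04), and P2RY6, a receptor for UDP, 2.30 to 16 CPM in Combo, against 0.809 to 4.43 CPM in ATRA (2.76, adjusted p = 0.017). The call of P2RY6 was lost, at adjusted p of 0.051 to 0.069, without either 552A library of day 4, the second ATRA library of day 2, the first Combo library of day 4 or either DMSO library of day 4.

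For several maturation genes the more negative difference went with a higher level under the inhibitor alone. ITGAM had 53.4, 95.1, 49.0 and 68.8 CPM in 552A, against 1.53 to 2.71 CPM in DMSO, and 536 to 984 CPM in Combo, against 238 to 672 CPM in ATRA, so that ATRA raised it by 3.39 with the inhibitor and by 7.45 without (difference -4.06 ± 0.35, adjusted p = 0.00019). Combo lay above ATRA at day 2 for ITGAM, and the arms overlapped at day 4. CD86 (-1.97), FPR2 (-2.83) and OAS1 (-4.72) had the same order of 552A over DMSO, with OAS1 at 6.00 to 19.6 CPM in Combo, 6.79 to 18.8 CPM in 552A, 4.01 to 5.44 CPM in ATRA and 0.0754 to 0.393 CPM in DMSO. LYZ, which fell in Combo, had 129 to 275 CPM in 552A, against 1.00 to 3.05 CPM in DMSO (-2.48). MS4A3, a membrane protein of granulocyte progenitors, had 2.83 and 4.08 CPM at day 2 and 0.254 and 0.127 CPM at day 4 in Combo, against 10.6 to 35.9 CPM in 552A, 7.64 to 51.9 CPM in ATRA and 10.2 to 33.9 CPM in DMSO (-5.06 ± 0.51, adjusted p = 0.00042). It fell with both agents (-4.54) and was not called with ATRA alone (0.52, adjusted p = 0.19). EMP1, an epithelial membrane protein, fell by 3.93 with both agents and was not called with ATRA alone (0.63, adjusted p = 0.18; difference -4.57). MPO fell with both agents (-5.98) and with ATRA alone (-2.62), and the difference was -3.36 (adjusted p = 0.0068). Of all genes tested 0.877% had a more negative difference. Of the integrated stress response and serine synthesis list 6 of 16 genes had a more negative difference, or 1 to 11 over the alternatives run with the fewest without the first Combo library of day 4. They included PSAT1, at 25.1 to 278 CPM in ATRA and 338 to 512 CPM in DMSO (-2.79), ASNS (-2.18) and SLC7A11, the cystine transporter (-2.68). MYC (-0.10), BCL2 (0.00) and CD38 (-0.80) were not called for this difference, with adjusted p of 0.91, 1 and 0.21.

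**Figure D4:**
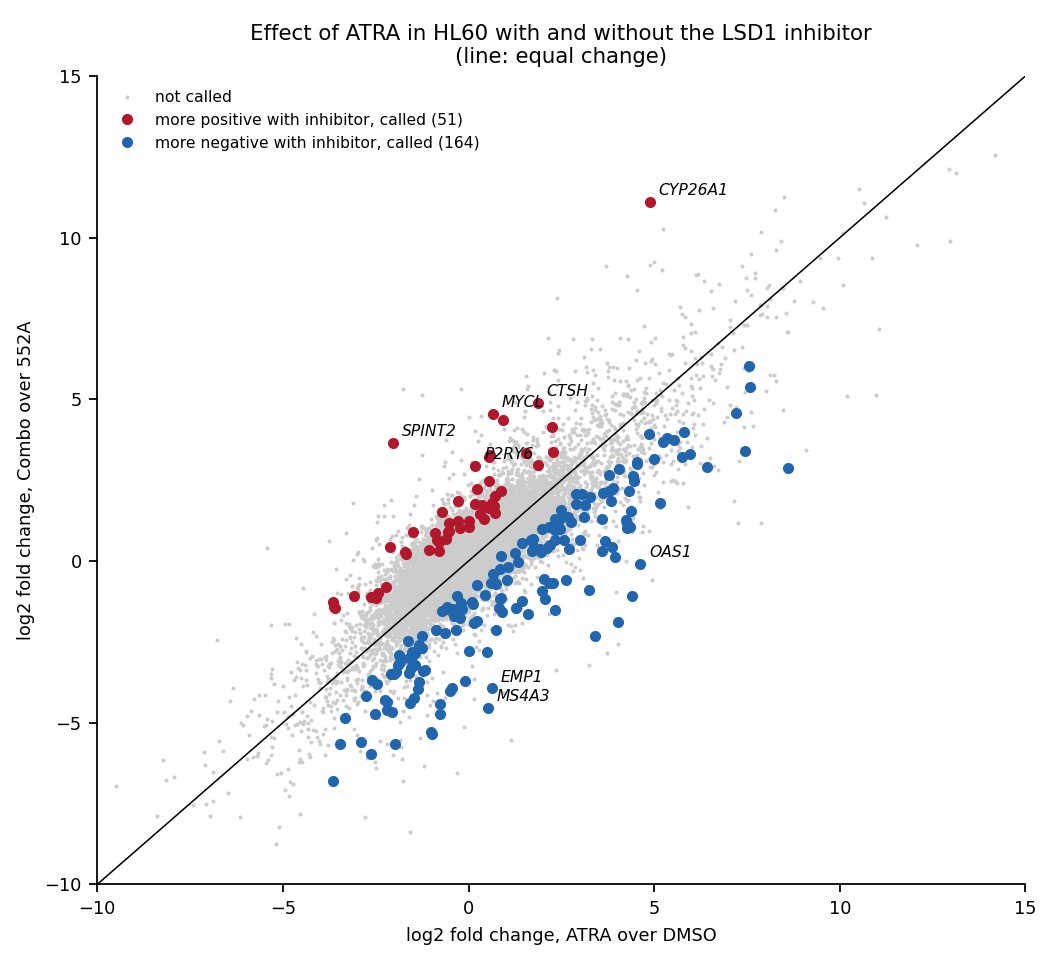
Log2 fold change of Combo over 552A (vertical) against that of ATRA over DMSO (horizontal) for the genes tested in HL60, with the genes called for the difference coloured by direction and the line of equal change drawn. There are 51 genes more positive with the inhibitor and 164 more negative among 18705.

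HL60 was compared with the other 5 lines under the same contrast, in 1 fit of their 48 Combo and 552A libraries over 23816 genes. In that fit the share of genes called for Combo against 552A was 37.4% in HL60, then 23.7% in THP1, 17.4% in MV411, 14.0% in OCIAML3, 10.4% in MOLM13 and 0.210% in Kasumi1. The change in HL60 differed from the mean of the other lines for 5735 genes (24.1%), 2854 more positive (12%) and 2881 more negative (12.1%). In this fit 5701 genes (23.9%) had a group at 0, which limits the calls as above: LILRA5, at 0 in all Kasumi1 libraries, was not called in spite of a difference of 8.45. CEACAM1 rose by 11.25 ± 0.54 in HL60, against 3.05 to 6.32 in MOLM13, MV411, OCIAML3 and THP1 and 0.48 in Kasumi1, where it was not called (difference 7.31, adjusted p = 1.5e-11). CD180, a relative of the Toll-like receptors, had 4.30, 2.04, 13.2 and 17.9 CPM in Combo and 2 counts in 552A in HL60, a ratio of 440.6 with a counting interval of 121.7 to 3643 (difference 7.71). SPINDOC, a cofactor of the chromatin reader spindlin, had 240 counts in Combo and 0 in 552A in HL60, at least 70.5-fold higher, and was called in none of the other 5 lines (7.59). TRPM4, a cation channel, had 3.17, 10.8, 20.9 and 10.6 CPM in Combo and at most 0.196 CPM in 552A in HL60 (7.15).

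In the other direction RGS16, an inhibitor of G protein signalling, fell by 4.82 ± 0.31 in HL60, to 0.377 to 1.84 CPM in Combo, against 14.2 to 35.5 CPM in 552A, but rose by 4.89 in THP1, 4.31 in OCIAML3 and 2.07 in MOLM13 (difference -6.92, adjusted p = 2.6e-15). PTPN3, a tyrosine phosphatase, fell by 5.31 in HL60 and rose by 6.77 in OCIAML3 and 2.19 in MV411 (-7.63). CECR2, a bromodomain protein, had 3 counts in Combo and 191 in 552A in HL60 (-6.37), and AKAP2, an anchor of protein kinase A whose exons overlap those of a neighbouring gene, had 0 counts in Combo and 112 in 552A, at least 42.4-fold lower (-7.97). Of the genes described above, MYB (-4.86 in HL60, against -0.33 over the other lines), BCL2 (-4.73, against -1.05), MPO (-6.0, against -1.94) and KDM1A (-1.18, against -0.21) fell further in HL60, with adjusted p of 7.3e-18, 8.4e-15, 2.5e-08 and 3.7e-07 for the difference. ITGAM rose further in HL60 (3.37, against 1.23). CD86 (2.48, against -0.32) and CYBB (3.97, against -0.24) rose in HL60 but not in the mean of the other lines. CD38 rose by 3.41 in HL60 and by 2.45 to 8.35 in the other lines, and its difference was -0.79 (adjusted p = 0.0014). CYP26A1 rose by 7.48 to 13.87 in MOLM13, MV411, OCIAML3 and THP1 in fitted values against groups at or near 0, and its difference was not called. By list, 15 of 16 integrated stress response and serine synthesis genes and 16 of 24 MYC and ribosome biogenesis genes had a more negative difference in HL60, with 0 in the other direction in edgeR, also at an unadjusted p under 0.05. Among myeloid surface receptors 16 of the 26 tested in that fit had a more positive difference and 2 a more negative one.

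**Figure D5:**
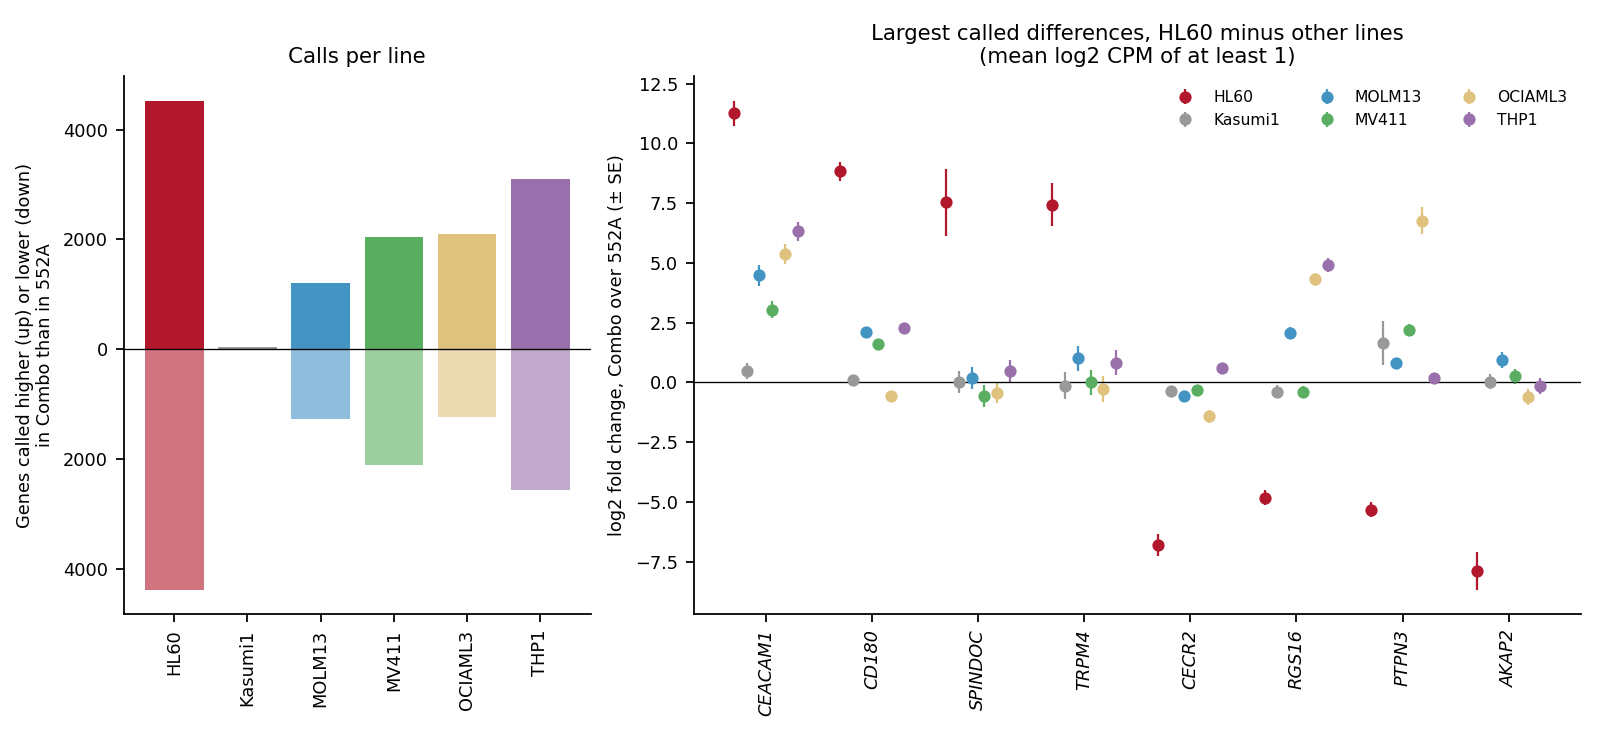
Left, number of genes called higher (up) or lower (down) in Combo than in 552A in each of the 6 lines, from 1 fit of 48 libraries. Right, log2 fold changes (± SE) in each line of the 8 genes with the largest called differences between HL60 and the mean of the other lines, among protein-coding genes averaging 1 or more in log2 CPM over the 48 libraries. HL60 has 4529 higher and 4371 lower calls and Kasumi1 has 44 and 6.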

How the data were processed

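The deposited file held raw counts of reads per gene, 60552 gene rows by 96 libraries, which the authors had produced before any normalization. Per the submitters' processing notes, STAR 2.4.2a, HTSeq 0.6.0 and Trimmomatic 0.36 were used with build GRCh38. Per the labels' protocols, RNA was extracted with TRIzol and RNeasy and libraries were made with a stranded total RNA kit. Which annotation was counted, and whether by strand, is not given in the sources used here. Reads of antisense or overlapping neighbours may therefore be shared. Symbols came from GENCODE 29 by Ensembl identifier (56994 rows found; the 3508 others held 0.0345% of HL60 counts), and 25399 rows had no count in any HL60 library.

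The 16 HL60 libraries, in 8 groups of line, treatment and day, were fitted with edgeR 4.0.16 (R 4.3.3) by the quasi-likelihood test with TMM normalization and its default expression filter, which leaves 8 residual degrees of freedom and 18705 genes. Library totals were 16.62 M to 32.99 M counts. Contrasts were Combo minus 552A as the mean of both days, at each day, and at day 4 minus day 2, ATRA minus DMSO, and the difference of the effects with and without inhibitor; the line difference came from 48 libraries in 24 groups (24 residual degrees of freedom). Standard errors were the log2 fold change divided by the square root of F. CPM used TMM-adjusted library sizes and is not per length, so levels are not compared between genes. Ratios against 1 to 3 counts have exact 95% intervals, a group at 0 was set at 3 counts over the group, and both cover counting error only. The scripts were run on simulated counts with known changes. Those counts had no GC trend and far fewer changed genes than these data, so the run checks the code and not the normalization. Replicates differed by far more than sampling noise (chi-square per degree of freedom 19.4 to 157.5), so none was counted as a duplicate.

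Named genes were the 12 largest called rises and 12 largest called falls among protein-coding genes with mean log2 CPM of at least 1 and no overlap within either day, up to 4 genes of each of 33 lists (541 genes) by p, the 4 largest differences in each direction, and 11 genes always given; others named from the lists were chosen after their values were seen. Some genes that the rule or the lists hold are not reported here; counts and medians over lists include them. The members and the lists were chosen with earlier results of these data known. Alternatives were size factors by RLE, DESeq2 1.42.0, no filter and a stricter filter, a GC and length offset, a replicate block, the 8 libraries alone, and leaving out each library or line.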

Additional observations from a re-analysis of the deposited data

Results flagged for a closer look

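Several differences between groups passed a test of the difference itself, and are listed here because the same contrast gave another value in another day, background or line. Between day 4 and day 2, 384 genes had a more positive and 235 a more negative difference of Combo over 552A. Among protein-coding genes averaging 1 or more in log2 CPM (over the 8 Combo and 552A libraries, or over the 48 for the lines), the largest were ATP1B1 (6.72), FCRL4 (5.94), SDC2 (5.80) and IGSF6 (5.10) in the positive direction, and TREML2 (-5.08), BPI (-5.43), TGM3 (-5.83) and PADI4 (-6.26) in the negative direction, all on the log2 scale. Below that level CD1C (7.72) and CD1A (7.36) had larger ones, with calls that were lost without the second 552A library of day 2. FCRL4, BPI and PADI4 had fold changes of opposite sign at the 2 days, although BPI overlapped 552A at day 2, with log2 values of -3.07, 1.36 and 2.45 at day 2 and 2.87, -4.08 and -3.80 at day 4.

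Between ATRA given with and without the inhibitor, 51 genes had a more positive and 164 a more negative change. CYP26A1 had 6.22. Within the limit on level SPINT2 (5.70), MYCL (3.90), CTSH (3.04) and P2RY6 (2.76) were the most positive, and EMP1 (-4.57), OAS1 (-4.72) and MS4A3 (-5.06) were among the most negative. For OAS1 the change with ATRA alone was 4.63.

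Between HL60 and the mean of the other 5 lines, 2854 genes had a more positive and 2881 a more negative change. Within the limit on level CD180 (7.71), SPINDOC (7.59), CEACAM1 (7.31) and TRPM4 (7.15) were the most positive, and CECR2 (-6.37), RGS16 (-6.92), PTPN3 (-7.63) and AKAP2 (-7.97) the most negative. RGS16 and PTPN3 had opposite signs in HL60 and in OCIAML3, with -4.82 and -5.31 in HL60 and 4.31 and 6.77 in OCIAML3. Groups of 2 libraries are too small to single out one library as far from the rest.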

How the results depend on the processing

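For the mean of both days the counts stayed within 1.5 times of the reported ones under each alternative run, with 3493 to 4729 genes higher and 3565 to 4460 lower when 1 library at a time was left out. With the offset for GC content and length, calls at day 2 were 4986 higher; with that offset and the replicate block together they were 5309 higher at day 2, and 4314 higher and 4288 lower at day 4. Leaving out 1 library gave 2052 to 3607 higher and 2334 to 3507 lower at day 2, and 1600 to 3050 higher and 1540 to 2997 lower at day 4. For day 4 minus day 2 the counts were 490 lower with no filter, 847 higher and 474 lower by DESeq2, 1173 and 1142 with the offset, 1576 and 1525 with offset and block, and 113 and 64 from the 8 Combo and 552A libraries alone, where fewer samples set the spread; leaving out 1 library gave 65 to 495 higher and 40 to 309 lower. For ATRA with against without inhibitor they were 1024 and 416 with no filter, 145 and 343 by DESeq2, 196 and 324 with the offset, 275 and 408 with offset and block, and 26 to 944 higher and 78 to 478 lower without 1 library. For HL60 against the other lines they were 4526 higher with the offset, 4718 higher with offset and block, 2337 to 2650 higher and 2395 to 2805 lower without 1 library, and 2626 to 3031 and 2582 to 2802 without 1 other line; the fits without a library or line reused the dispersion trend and genes of the full fit. The cause of these shifts was not tested.

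Replicate numbers did not pair the samples across all HL60 groups: of 28 pairs of groups 15 had correlated deviations over 0.1, with a range of -0.853 to 0.917. Within a day the correlation was high for some pairs, such as ATRA and Combo at day 4 (0.917) and 552A and Combo at day 2 (0.659). It was not for others, such as 552A and Combo at day 4 (-0.0626) and Combo and DMSO at day 2 (-0.255). Whether libraries of the same number and day were handled together was not tested. The replicate block gave 4371 higher and 4297 lower for the mean of days, 427 and 280 for day 4 minus day 2, 46 and 180 for ATRA with against without inhibitor, and 2903 and 2996 for the line difference. No called direction of a named gene reversed in any alternative. Calls of named genes kept their side in 3732 checks of the mean of days, were lost in 43 and gained in 18, and for the differences kept in 510 and lost in 18. RARA (adjusted p = 0.13), TFRC (0.38), GFI1 (0.18), CCNE2 (0.064), NLRC5 (0.062), PHF21A (0.055) and HSPA8 (0.055) lost theirs in a fit of the 8 Combo and 552A libraries alone without a term for a different effect at each day. RARA, TFRC, FDPS, EPOR, BUB1 and HIST1H4C lost theirs without single libraries. Depth limits genes with a group at 0 counts, 1.95% of genes in the Combo and 552A groups and 23.9% in the fit of 6 lines, where 308 of them were called.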
